A study of Mus musculus with 32 samples.

Results

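The first sampling point of a long culture experiment was examined here: mouse embryonic stem cells at passage 0 with the nuclear receptor agonist T0901317 (NrESC) against untreated cells of the same passage (ESC). The members were chosen by their labels, which gave 4 of the 32 libraries, 2 per arm, and 15036 of the 24890 gene symbols had enough counts to be tested. All cells were of E14, a wild-type embryonic stem cell line, grown on gelatin in medium with serum, LIF, 3 µM CHIR99021 (an inhibitor of the kinase GSK3) and 1 µM PD0325901 (an inhibitor of the kinase MEK). NrESC medium differed by 10 µM T0901317. The labels mark the NrESC libraries of passage 0 as treated but do not say for how long. The comparison rests on 1 cell line, and nothing in the labels says that the 2 libraries of an arm came from separate cultures, so the p-values measure only the spread between these samples, which may be technical. The other 28 libraries are the same arms at passages 2 to 14, and the series as a whole follows how the nuclear receptor agonist changes these cells over passages.

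T0901317 binds the liver X receptors (LXR), sterol-sensing transcription factors that pair with RXR and switch on genes of cholesterol export and fatty acid synthesis. The same compound is also known as a ligand of the xenobiotic receptor PXR and the bile acid receptor FXR and as an inverse agonist of the receptor RORA, so the targets of those receptors were listed too. Outside lipids, 2 stress programmes recur below. The hypoxia-inducible factors (HIF) raise glycolytic enzymes, mitophagy receptors and collagen-modifying enzymes when oxygen or the activity of prolyl hydroxylases is low. ATF4, the factor translated when the integrated stress response is on, raises amino acid transporters, serine and asparagine synthesis and aminoacyl-tRNA synthetases.

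The 4 libraries held between 28055511 and 46266628 counts, inside the range of the whole series (24989651 to 50463483). Levels are given in CPM, counts relative to the library total after TMM scaling. In the 4 libraries 10 stem cell markers (among them Pou5f1, Sox2, Nanog and Esrrb) summed to between 6379 and 6562 CPM. Of 8 fibroblast markers, which feeder cells would carry, the sum was 29.6 and 29.9 CPM in ESC and 27.2 and 25.9 CPM in NrESC, most of it from Pdgfrb, while Postn, Dcn and Lum were at 0 in all 4. Primitive endoderm markers summed to 7.70 and 7.84 CPM in ESC and 8.97 and 8.62 CPM in NrESC, and trophoblast markers to 3.16 and 3.92 CPM in ESC and 3.00 and 2.49 CPM in NrESC. Transcripts of histone genes, most of which end without polyadenylation, made up 0.00259% and 0.00252% of the counts in ESC and 0.00374% and 0.00371% in NrESC. The ribosomal RNA precursor entry Rn45s stood at 1938 and 1948 CPM in the ESC libraries and 2671 and 2657 CPM in the NrESC libraries. Both measures of RNA outside the polyadenylated pool were thus higher in both NrESC libraries, and their part in the results below was not tested. Ribosomal protein genes took 7.11% to 7.29% of the counts in the 4 libraries.

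Many genes differed between the arms, nearly all of them by little. By edgeR's quasi-likelihood test with Benjamini-Hochberg adjustment and a threshold of 0.05, which is what "called" means from here on, 4875 genes differed between the arms (32.4% of the genes tested), 2645 higher in NrESC (17.6%) and 2230 lower (14.8%). The median size of a called difference was 0.23 on the log2 scale. Under 1.2-fold lay 1348 of the raised and 1481 of the lowered genes, and between 1.2-fold and 1.5-fold another 972 and 483. At 2-fold or more there were 106 raised genes (0.705%) and 130 lowered genes (0.865%), 236 in all (1.57%). At an unadjusted p under 0.05 there were 6253 genes, and the libraries of the arms did not overlap for 9379 genes (62.4%).

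Most of the large differences were seen in weakly expressed genes. Of the 2829 genes with a mean under 1 CPM, 197 were called, and 164 of these were among the 236 genes at 2-fold or more (68 raised, 96 lowered). Of the 2421 genes at 100 CPM or more, 1343 were called, and 5 of them reached 2-fold. The median standard error of a log2 fold change (SE) was 0.52 under 1 CPM and 0.0304 at 100 CPM or more. The direction of calls varied with level too: at 100 CPM or more 21.4% of genes were called up and 34.1% down, and under 1 CPM 2.93% and 4.03%. For genes under 1 CPM levels are given below in place of fold changes between the arms. Most genes named below were chosen for small p-values or large differences, some of them with arms that do not overlap as a condition, so where this is stated it describes them and is no finding. The arms also drift over the experiment. The median SD between the 8 passage means was 0.142 in ESC and 0.163 in NrESC on the log2 scale, against 0.0535 and 0.0537 between the 2 libraries of passage 0. Of the 2645 raised genes, 2024 lay above all 8 ESC passage means in NrESC at passage 0, and of the 2230 lowered genes 1567 lay below all 8. Over all genes tested, 4030 lay above and 3650 below.

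**Figure D1:**
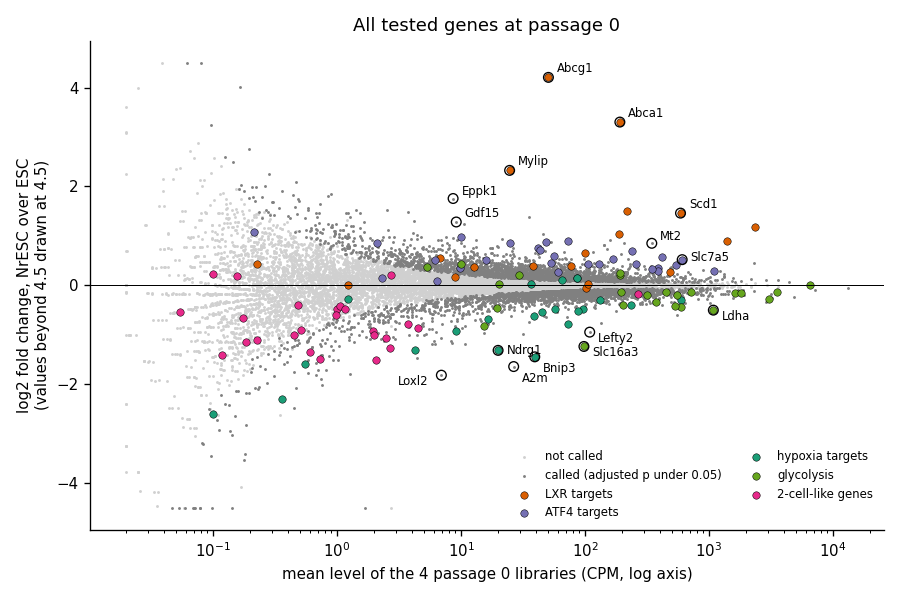
Mean level of each of the 15036 tested genes over the 4 passage 0 libraries (CPM, log axis) against its log2 fold change, NrESC over ESC, with called genes in dark grey and 5 gene lists in colour. LXR targets reach 4.21 (Abcg1), while hypoxia targets such as Bnip3 (-1.45) and Ndrg1 (-1.32) lie below the axis and ATF4 targets above it, and the widest scatter is at low levels.

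The lipid targets of LXR held the largest rises of well expressed genes. Srebf1, which encodes the main activator of fatty acid synthesis genes, stood at 111 and 116 CPM in the ESC libraries and 329.8 and 312 CPM in the NrESC libraries, a difference of 2.83-fold. Other lipid genes were higher in the same libraries. Scd1, the desaturase that makes oleate, stood at 309.6 and 319 CPM in the ESC libraries and 853 and 874 CPM in the NrESC libraries. Mid1ip1, which promotes the activity of acetyl-CoA carboxylase, stood at 19.1 and 20 CPM in the ESC libraries and 52.4 and 49.5 CPM in the NrESC libraries. Lpcat3, an enzyme that puts polyunsaturated fatty acids into phospholipids, stood at 123 and 123 CPM in the ESC libraries and 251 and 255 CPM in the NrESC libraries. None of these genes had overlapping libraries, and each was above all 8 ESC passage means. Of 19 LXR targets tested (of 23 listed), 14 rose and 0 fell, with a median of 0.55 against 0.01 for all genes. Of 24 fatty acid genes 18 rose and 0 fell, with a median of 0.40, where 17.6% of all genes were called up. These lists hold the textbook targets of the compound, and their rise serves as a check of the labels.

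Cholesterol synthesis genes differed little at passage 0. Of 24 genes, 12 rose and 4 fell, with a median of 0.10. Of all genes 17.6% were called up and 14.8% down. Among the raised were the enzymes Pmvk (0.41), Tm7sf2 (0.38) and Ebp (0.37). Those that fell included Idi1 (-0.26), Sqle (-0.16) and Fdps (-0.08). In the test of passage 0 against the mean of passages 2, 4, 6, 10, 12 and 14, in which 14.0% of all genes were called up and 11.6% down, 20 of the 24 had a lower difference at passage 0 and 0 a higher one. The list's median was 0.10 here, 0.22 at passage 2 and between 0.38 and 0.90 from passage 4 on.

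Genes of the response to low oxygen were lower in treated cells. Of 21 hypoxia targets tested (all that were listed), 17 fell, 2 rose (Vegfa and Ddit4), and 2 were not called (Car9 and Mxi1), with a median of -0.53. Over all genes, 14.8% were called down. The lowered members serve mitophagy (Bnip3, Bnip3l), oxygen sensing by prolyl hydroxylases (Egln1, Egln3), collagen hydroxylation (P4ha1, P4ha2) and the control of pyruvate entry into mitochondria (Pdk1).

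HIF binds short DNA sites with the core ACGTG, and the promoters of the lowered members were therefore read for those letters. RefSeq promoters (build GRCm38.p6, the 250 bases before the annotated start, both strands) were matched by symbol for 11722 of the 15036 tested genes. ACGTG stood in 24.4% of all of these, in 12 of the 17 hypoxia targets with a promoter, and in 8 of the 13 lowered ones. A match says where these letters are and is neither a binding site nor a cause. A palindromic CACGTG counts as a match on each strand. The 60 bases around the match are shown for 4 of the lowered genes, 5′ to 3′ on the gene's own strand, with the match in capitals: Bnip3 at chr7:138909582-138909641 (minus strand), Egln1 at chr8:124949291-124949350 (minus), P4ha1 at chr10:59323236-59323295 (plus) and Ankrd37 at chr8:45999851-45999910 (minus).
Bnip3: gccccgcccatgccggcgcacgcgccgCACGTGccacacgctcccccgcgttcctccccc
Egln1: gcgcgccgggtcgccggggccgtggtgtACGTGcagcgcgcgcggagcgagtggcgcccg
P4ha1: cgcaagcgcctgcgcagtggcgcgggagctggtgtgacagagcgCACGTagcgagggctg
Ankrd37: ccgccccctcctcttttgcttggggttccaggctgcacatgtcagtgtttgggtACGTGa
Bnip3 shows the palindrome, Egln1 and Ankrd37 the core on the gene's strand, and P4ha1 the core on the other strand, read here as CACGT.

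Bnip3, a mitochondrial protein that marks mitochondria for removal, stood at 57.6 and 57.5 CPM in the ESC libraries and 20.8 and 21.3 CPM in the NrESC libraries, and its log2 fold change was -1.45 (SE 0.0467, edgeR adjusted p = 9.49e-27). Ndrg1, a hypoxia-induced stress protein, stood at 29.3 and 27.5 CPM in the ESC libraries and 11.4 and 11.5 CPM in the NrESC libraries (-1.32, SE 0.0694). Ankrd37, a small ankyrin repeat protein, stood at 6.51 and 5.66 CPM in the ESC libraries and 2.4 and 2.54 CPM in the NrESC libraries (-1.30, SE 0.147). In each of the 3 both NrESC libraries lay below both ESC libraries by more than 2-fold. Egln1, the main oxygen-sensing prolyl hydroxylase, stood at 91.6 and 93.6 CPM in the ESC libraries and 51.6 and 55.1 CPM in the NrESC libraries (-0.79, SE 0.0418), and the collagen prolyl hydroxylase P4ha1 at 48.1 and 46.2 CPM in the ESC libraries and 30.1 and 31.5 CPM in the NrESC libraries (-0.61, SE 0.0454). Ero1l, an oxidase of the endoplasmic reticulum, stood at 104 and 103 CPM in the ESC libraries and 70.1 and 74.6 CPM in the NrESC libraries. These 3 fell by less than 2-fold, again without overlap. Of the most weakly expressed members, Adm, a vasodilator peptide, stood at 0.467 and 0.762 CPM in ESC, 0.0337 and 0.175 CPM in NrESC, Car12, a carbonic anhydrase, at 0.804 and 0.907 CPM in ESC, 0.135 and 0.372 CPM in NrESC, and Nrn1 at 0.233 and 0.109 CPM in ESC, 0.0337 and 0.0219 CPM in NrESC. Nrn1 lost its call under 7 of the alternative settings. The 2 members that rose were Vegfa, the angiogenic growth factor (63.4 and 62.3 CPM in ESC, 71.1 and 65.5 CPM in NrESC), and Ddit4, an inhibitor of mTOR signalling that is also an ATF4 target (83.6 and 80.5 CPM in ESC, 91.8 and 90.9 CPM in NrESC).

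A pair of genes known elsewhere as HIF targets but not on that list are singled out here after their values were seen. Ndufa4l2, a mitochondrial protein, stood at 11.5 and 11.3 CPM in the ESC libraries and 5.2 and 5.16 CPM in the NrESC libraries (-1.14, SE 0.0976). Loxl2, a lysyl oxidase that cross-links collagen, had the lowest fold change among the called genes with a mean of at least 2 CPM and a full gene name. It stood at 11 and 10.6 CPM in the ESC libraries and 3.07 and 3.06 CPM in the NrESC libraries (-1.82, SE 0.111). The NrESC libraries of both genes lay below all 8 ESC passage means, which ran from 5.51 to 33.6 CPM for Loxl2.

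Glycolysis fell with them, by smaller steps and at much higher levels. Of 24 genes, 17 fell and 4 rose, with a median of -0.16. At 100 CPM or more, where 34.1% of all genes were called down, stood 17 of the 24. Slc16a3, the lactate exporter MCT4, stood at 137 and 138 CPM in the ESC libraries and 58.5 and 58.1 CPM in the NrESC libraries (-1.24, SE 0.0362, edgeR adjusted p = 2.79e-28). Ldha, which makes lactate, stood at 1282 and 1259 CPM in the ESC libraries and 896 and 896 CPM in the NrESC libraries (-0.50, SE 0.0196). Tpi1, a triose phosphate isomerase, stood at 689 and 686 CPM in the ESC libraries and 513 and 502 CPM in the NrESC libraries (-0.44, SE 0.0247). Pkm, the last enzyme of the pathway, stood at 3350.2 and 3317 CPM in the ESC libraries and 2756 and 2710.2 CPM in the NrESC libraries (-0.29, SE 0.0197). Libraries of the arms did not overlap for any of the 4, yet the NrESC level of Tpi1 stayed within the range of the ESC passage means (489 to 808 CPM). Of the 17 lowered members 8 lay below the range of their ESC passage means, where 1567 of all 2230 lowered genes did. The 4 that rose were the isoforms Hk1 (0.20), Pfkm (0.20), Ldhb (0.26) and Eno2 (0.44). Gapdh did not differ at 6646 and 6442 CPM in ESC, 6520.5 and 6593 CPM in NrESC (log2 fold change 0.00, SE 0.0215).

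The differences in these oxygen-related genes varied between passages, and at some the sign turned. The median of the hypoxia list was -0.53 here, and at passages 2, 4, 8 and 14 it was -0.48, -0.59, -0.50 and -0.58, with 16 to 17 members called down at passages 0, 2, 4 and 14. It was -0.10 at passage 6 and -0.24 at passage 12. At passage 10 the sign turned, with a median of 0.63, 16 members up and 2 down. The median of the glycolysis list was -0.17, -0.11, -0.13 and -0.05 at passages 2, 4, 8 and 14. It was higher in treated cells at passage 6 (0.21, 19 members up and 1 down) and at passage 10 (0.51, 21 up and 0 down), and at passage 12 it was 0.02, with 9 up and 6 down. Untreated cells alone ranged from 29.2 CPM (passage 6) to 115 CPM (passage 14) in the mean of Bnip3, and treated cells from 15 CPM (passage 8) to 88.2 CPM (passage 10). Slc16a3 ranged from 78.6 to 196 CPM over the ESC passages and from 47.2 to 202 CPM over the NrESC passages. The difference at passage 0 was lower than the mean of later passages for 16 of the 21 hypoxia targets, and for 11 once passage 10 was also left out of that mean, a setting chosen after the data were seen. For glycolysis the counts were 18 and 17 of 24. The state of the cultures at each harvest is not labelled, and its part in these values was not tested.

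**Figure D2:**
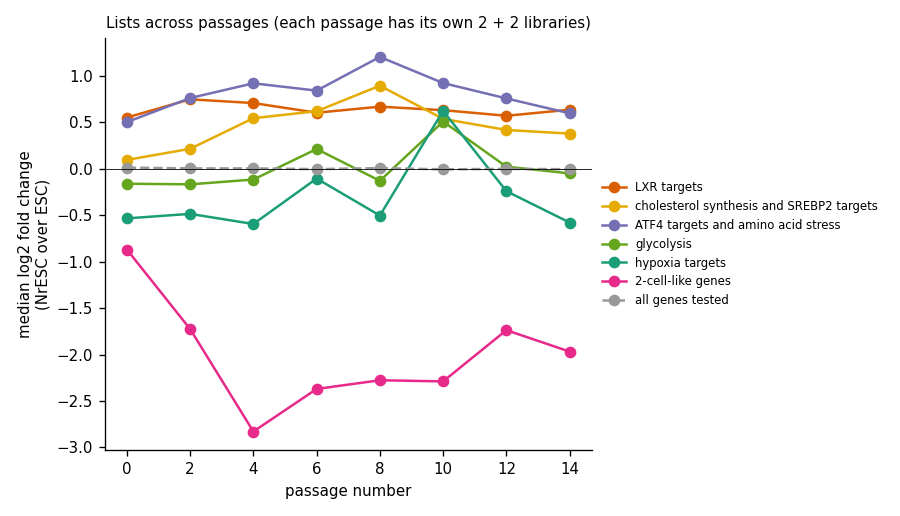
Median log2 fold change (NrESC over ESC) of 6 gene lists and of all tested genes at each passage, each passage with its own 2 ESC and 2 NrESC libraries. The hypoxia list lies at -0.53 at passage 0 and at 0.63 at passage 10, LXR targets stay between 0.55 and 0.75, and ATF4 targets are lowest at passage 0 (0.50).

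ATF4 targets had the highest share of raised members among the 37 gene lists examined. Of 29 tested (all that were listed), 26 rose and 0 fell, where 17.6% of all genes were called up, and the median was 0.50. The 3 that were not called were Stc2 (0.08, SE 0.123), Cebpb (0.14, SE 0.231) and Fgf21, which stood at 0.104 and 0.181 CPM in ESC, 0.236 and 0.328 CPM in NrESC. Atf4 itself rose by 0.35 and Ddit3, which encodes CHOP, by 0.50 on the log2 scale.

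ATF4 dimers bind composite elements of the form TGATGNAA, so promoters were read for these letters on both strands as well. They stood in 2.42% of all promoters and in 6 of the 22 raised ATF4 targets that had a promoter in the table. Here too a match is a description of the sequence. Slc7a11, Asns and Chac1 are shown because they are long-known members of the pathway: Slc7a11 at chr3:50443627-50443686 (minus strand), Asns at chr6:7693210-7693269 (minus) and Chac1 at chr2:119351023-119351082 (plus), with the element in capitals, read as TTNCATCA where it lies on the other strand.
Slc7a11: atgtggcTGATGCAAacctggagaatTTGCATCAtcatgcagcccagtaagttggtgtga
Asns: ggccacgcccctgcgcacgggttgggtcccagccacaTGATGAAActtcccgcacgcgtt
Chac1: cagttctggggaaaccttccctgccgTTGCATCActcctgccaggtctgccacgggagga
The Slc7a11 stretch holds the element on each strand and the others hold it at 1 place.

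The raised members cover uptake, synthesis and charging of amino acids. Among transporters, Slc7a5, the large neutral amino acid carrier, stood at 494 and 505 CPM in the ESC libraries and 715 and 715 CPM in the NrESC libraries (0.52, SE 0.0216, edgeR adjusted p = 1.00e-22). Slc1a4, a carrier of alanine and serine, stood at 51.3 and 49.9 CPM in the ESC libraries and 93.3 and 94.9 CPM in the NrESC libraries (0.89, SE 0.0421). Slc7a11, the cystine carrier shown above, stood at 1.37 and 1.67 CPM in the ESC libraries and 2.19 and 3.15 CPM in the NrESC libraries (0.86), and the glycine carrier Slc6a9 at 6.79 and 6.71 CPM in the ESC libraries and 12.9 and 13.5 CPM in the NrESC libraries (0.97). Among enzymes, Phgdh, which starts serine synthesis, stood at 177 and 185 CPM in the ESC libraries and 299 and 289 CPM in the NrESC libraries (0.70, SE 0.0322). Asns, which makes asparagine, stood at 999 and 989 CPM in the ESC libraries and 1199.5 and 1212 CPM in the NrESC libraries (0.28, SE 0.0208). Aars, the alanyl-tRNA synthetase, was not on the list and stood at 1119.5 and 1104 CPM in the ESC libraries and 1372 and 1350.4 CPM in the NrESC libraries (0.29, SE 0.0214). Both NrESC libraries were the higher ones in each. Trib3, which restrains the pathway, rose by 0.89, and Chac1, which degrades glutathione, by 0.86.

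The ATF4 list differed less between the arms at passage 0 than later. Its median ran from 0.60 to 1.21 over passages 2 to 14, and 21 of the 29 members had a lower difference at passage 0 than in the mean of later passages, against 2 with a higher one (without passage 10, 19 and 2). For Slc1a4 this interaction was -0.44 (SE 0.047) and for Phgdh -0.37 (SE 0.0351). In both genes the mean of the untreated arm was lower later. Slc1a4 in ESC stood at 50.6 CPM at passage 0 and between 18.3 and 37.9 CPM later. In NrESC it stood at 94.1 CPM and then between 50.9 and 92.7 CPM. Phgdh in ESC stood at 181 CPM and then between 94.1 and 150 CPM, and in NrESC at 294 CPM and then between 210 and 309 CPM.

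More chaperone genes fell than rose. Of all genes tested 14.8% were called down, and 34.1% of those at 100 CPM or more. In the endoplasmic reticulum 10 of 25 chaperones and folding enzymes fell and 3 rose, with a median of -0.06. At 100 CPM or more stood 11 of these 25, so the share that fell is near that of genes at this level. Hspa5 (BiP), the main chaperone of that compartment, stood at 672 and 668 CPM in the ESC libraries and 548 and 548 CPM in the NrESC libraries (-0.29, SE 0.0212). P4hb, a protein disulfide isomerase, stood at 659 and 671 CPM in the ESC libraries and 567 and 564 CPM in the NrESC libraries (-0.23). The 3 that rose were Herpud1 (0.36), Atf6 (0.21) and Syvn1 (0.16). Among cytosolic heat shock genes 12 of 21 fell and 2 rose (Hspa4l and Cryab), with a median of -0.14, and 13 of the 21 stood at 100 CPM or more. The constitutive chaperone Hspa8 stood at 3510.1 and 3531 CPM in the ESC libraries and 2895 and 3022 CPM in the NrESC libraries (-0.25, SE 0.0232), and Hspa4 and Hsph1, which recharge it, changed by -0.27 and -0.25. Hsp90aa1 changed by -0.24 and Hsp90ab1 by -0.10, and the latter lost its call without the first ESC library.

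Among genes of growth, called members were mostly lower, by small amounts. These genes are highly expressed, and 34.1% of all genes at 100 CPM or more were called down, against 14.8% of all genes tested. At that level stood 32 of the 35 ribosome biogenesis, 26 of the 40 replication and 26 of the 30 mitosis genes. Of 35 ribosome biogenesis and MYC target genes, 25 fell and 2 rose (Rrp9 and Cad), with a median of -0.12. Npm1, a nucleolar chaperone of ribosome assembly, stood at 3292 and 3080.5 CPM in the ESC libraries and 2477 and 2595 CPM in the NrESC libraries (-0.33, SE 0.0327). Ncl, nucleolin, stood at 3388 and 3128 CPM in the ESC libraries and 2641 and 2628 CPM in the NrESC libraries (-0.31, SE 0.0318), and Gnl3, nucleostemin, at 215 and 210.5 CPM in the ESC libraries and 167 and 163 CPM in the NrESC libraries (-0.37, SE 0.0269). Myc itself stood at 16 and 16.1 CPM in the ESC libraries and 10.6 and 11.2 CPM in the NrESC libraries (-0.56, SE 0.0777). In DNA replication 23 of 40 genes fell and 1 rose (Pold1), with a median of -0.09. Ccne2, a cyclin of S phase entry, led the lowered ones (25.7 and 24.2 CPM in ESC, 18.6 and 18.7 CPM in NrESC, -0.42). In mitosis 14 of 30 fell and 2 rose (Espl1 and Ccna2), with a median of -0.04, among them the kinetochore genes Cenpe (-0.24) and Cenpf (-0.23). Such medians are close to the difference that normalization can make: scaled by DESeq2's size factors in place of TMM, 2423 genes were called up and 2437 down.

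Of the highly expressed genes of translation, Rpsa and Rps2, which encode proteins of the small ribosomal subunit, rose by 0.11 and 0.10 on the log2 scale. Rpsa stood at 2784 and 2725 CPM in the ESC libraries and 2995 and 2949 CPM in the NrESC libraries, and Rps2 at 3535 and 3373 CPM in the ESC libraries and 3785 and 3634 CPM in the NrESC libraries. Rn45s, given above, rose by 0.46 (SE 0.085), and the elongation factor gene Eef1a1 changed by -0.05, a call that was lost without the first ESC library. In bulk RNA fewer cells of a kind and less RNA per cell cannot be told apart, which holds for all groups described here.

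Among genes of epithelial junctions and keratins more rose than fell. Of 30 tested, 18 rose and 3 fell, among them Krt19 and Pkp2, with a median of 0.22, where 17.6% of all genes were called up. Eppk1, epiplakin, a large protein that bundles keratin filaments, stood at 3.94 and 3.92 CPM in the ESC libraries and 13.8 and 12.9 CPM in the NrESC libraries (1.76, SE 0.0955, edgeR adjusted p = 1.19e-18), the highest fold change outside the lipid lists among called genes with a mean of at least 2 CPM and a full gene name. Cldn7, a tight junction claudin, stood at 2.46 and 2.25 CPM in the ESC libraries and 6.48 and 5.41 CPM in the NrESC libraries (1.31, SE 0.168). Plec, plectin, which ties filaments to junctions, stood at 111 and 112 CPM in the ESC libraries and 193 and 181 CPM in the NrESC libraries (0.74, SE 0.0391). Krt8, a keratin of simple epithelia, stood at 51.1 and 53.4 CPM in the ESC libraries and 85.4 and 81.3 CPM in the NrESC libraries (0.67, SE 0.0443), and its partner Krt18 rose by 0.48. In each of these the NrESC libraries were the higher ones. Krt19 moved the other way, at 8.5 and 8.05 CPM in ESC, 5.3 and 5.56 CPM in NrESC. Above all 8 ESC passage means lay 12 of the 18 raised members, where 2024 of all 2645 raised genes did.

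Extracellular matrix genes moved in both directions. Of 29 genes 12 rose and 7 fell, with a median of 0.10, where 17.6% of all genes were called up and 14.8% down. Below were Loxl2, the collagen hydroxylases P4ha1, P4ha2 (-0.93) and Plod2 (-0.52), of which P4ha1 and P4ha2 are also on the hypoxia list, and, by smaller amounts, Lama1 (-0.21), Fn1 (-0.12) and Nid1 (-0.11). Above were Tgm2, a transglutaminase that cross-links proteins (37.7 and 36.5 CPM in ESC, 69.5 and 67.7 CPM in NrESC, 0.88, SE 0.0511), Loxl1 (0.66) and basement membrane genes such as Col4a2 (0.21) and Lamb2 (0.24). Of fibroblast markers 2 of 11 tested rose (Loxl1 and Mmp2) and 2 fell (Pdgfrb and Fn1), with a median of 0.01. Among actin, adhesion and YAP or SRF targets 5 of 23 rose, such as Tagln2 (0.39) and Flna (0.24), and 3 fell, among them Myl9 and Anxa2.

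**Figure D3:**
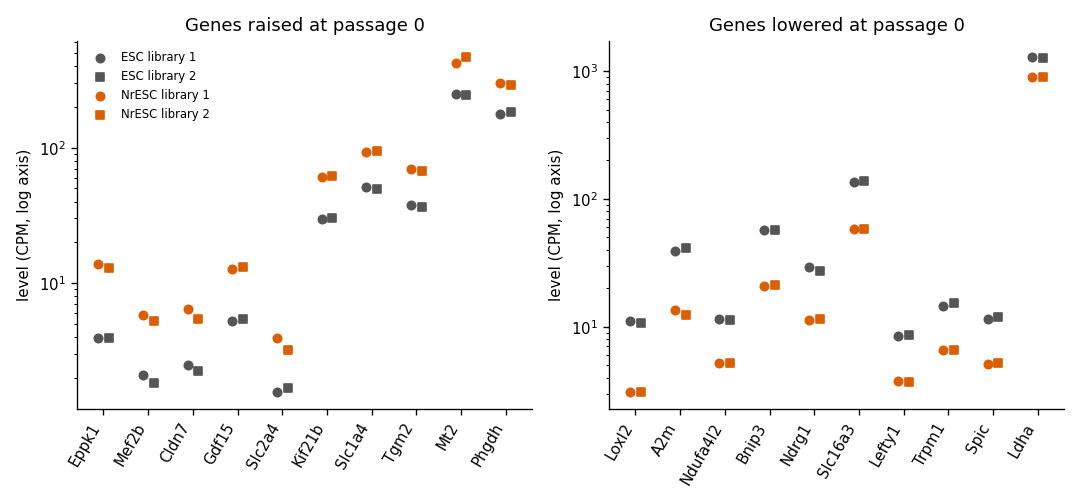
Level in CPM (log axis) of 10 raised and 10 lowered genes in each of the 4 passage 0 libraries, ESC in grey and NrESC in orange, circles for the first and squares for the second library. The genes were picked from those whose arms do not overlap (62.4% of all genes tested), and the plot shows the size of the gaps, for example for Eppk1 (3.94 and 3.92 CPM in ESC, 13.8 and 12.9 CPM in NrESC).

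Targets of Nodal, a TGF-beta family signal that embryonic stem cells make and answer themselves, were lower where they moved most. Lefty1 and Lefty2 encode secreted inhibitors of Nodal that it induces. Lefty1 stood at 8.42 and 8.67 CPM in the ESC libraries and 3.78 and 3.72 CPM in the NrESC libraries (-1.19, SE 0.138) and Lefty2 at 141 and 146 CPM in the ESC libraries and 77.6 and 71.6 CPM in the NrESC libraries (-0.95, SE 0.035). Both arms were apart for each gene, and each was called down at 7 of the 7 later passages as well. Nodal itself did not pass the test (81 and 87.5 CPM in ESC, 80 and 77.8 CPM in NrESC, -0.09, SE 0.0383), while its coreceptor gene Tdgf1 changed by -0.28 and Foxh1, the transcription factor of the pathway, rose by 0.13. In the whole list of Nodal, TGF-beta and BMP genes 7 of 22 fell and 2 rose (Foxh1 and Tgfb1), with a median of -0.11. Of all genes 14.8% were called down. The Lefty2 difference was less negative at passage 0 than later, with an interaction of 0.68 (SE 0.038).

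CHIR99021 and PD0325901 were in both media, so the WNT and ERK lists compare cells with these pathways under the same inhibitors. Of 19 WNT targets 5 fell, among them Notum, a secreted WNT inhibitor (19.5 and 18.2 CPM in ESC, 14 and 12.6 CPM in NrESC), and Ccnd1 (-0.23), and 3 rose (T, Nkd1 and Axin2), with a median of -0.07. Of 25 ERK feedback and immediate early genes 7 rose and 4 fell, with a median of 0.04. For both lists the share of all genes was 17.6% called up and 14.8% down. AP-1 and stress-linked members were among the raised: Atf3, also induced by ATF4, stood at 6.51 and 6.28 CPM in the ESC libraries and 12.6 and 11.8 CPM in the NrESC libraries (0.92, SE 0.096), and Junb at 26.3 and 26.3 CPM in the ESC libraries and 39.8 and 38.8 CPM in the NrESC libraries (0.58, SE 0.0603). The 4 lowered were Ier3 (-0.89), Myc, the phosphatase gene Dusp1 (-0.46) and Spry2 (-0.11).

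The stem cell core changed little in size but in many members. Of 27 genes of core and naive pluripotency 14 fell and 5 rose, with a median of -0.09. At 100 CPM or more, where 34.1% of all genes were called down, stood 17 of the 27. Nanog, a factor that holds cells in self-renewal, stood at 1134 and 1132 CPM in the ESC libraries and 875 and 896 CPM in the NrESC libraries (-0.36, SE 0.0208). Zfp42 (Rex1), a marker of the naive state, stood at 602 and 592 CPM in the ESC libraries and 498 and 496 CPM in the NrESC libraries (-0.26). Dppa2, which activates early embryonic genes, stood at 106 and 101 CPM in the ESC libraries and 75.9 and 73.8 CPM in the NrESC libraries (-0.47, SE 0.0406). In the other direction, Dppa5a stood at 1219.6 and 1211 CPM in the ESC libraries and 1476 and 1375 CPM in the NrESC libraries (0.23) and Pou5f1 rose by 0.09, while Sox2 changed by -0.11 and Esrrb and Klf4 were not called (0.02, SE 0.0204, and -0.03, SE 0.0299). Formative and primed genes, which mark the step out of the naive state, did not rise as a group: 8 of 15 fell and 2 rose (Sall2 and Etv4), with a median of -0.13. Zic2 stood at 25.8 and 24.4 CPM in the ESC libraries and 16.9 and 17.6 CPM in the NrESC libraries (-0.54, SE 0.0607). Otx2 was not called (-0.06, SE 0.132).

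The 2-cell-like state is one that few embryonic stem cells enter at a time and in which transcripts of the cleavage-stage embryo return. These transcripts were already lower, though less than later. Of 25 tested (of 34 listed) 11 fell and 0 rose, with a median of -0.87 against -2.12 for the members' mean over later passages. Of all genes 14.8% were called down. Under 1 CPM lay 14 of the 25, where fold changes are imprecise, so the median is imprecise too. Zscan4d stood at 3.11 and 3.7 CPM in the ESC libraries and 1.18 and 1.88 CPM in the NrESC libraries and Zscan4c at 5.99 and 5.66 CPM in the ESC libraries and 2.67 and 3.57 CPM in the NrESC libraries. The interaction was 1.10 (SE 0.197) for Zscan4d and 1.26 (SE 0.133) for Zscan4c. In that direction 15 of the 25 members were called, and 14.0% of all genes. These genes have near-identical copies among which reads were divided, so the value of a single copy is uncertain. For the same reason the counts of members are not counts of separate results. The PRAME family genes Pramel6 and Pramel7, which are active in preimplantation embryos, also differed less at passage 0 than later. Pramel6 stood at 7.88 and 8.42 CPM in the ESC libraries and 3.68 and 3.46 CPM in the NrESC libraries (-1.19, SE 0.115), with an interaction of 1.76 (SE 0.133). Pramel7 stood at 3.86 and 3.66 CPM in the ESC libraries and 2.13 and 1.62 CPM in the NrESC libraries (-1.05), with an interaction of 1.87 (SE 0.181). The mean of Zscan4c in the ESC arm was 5.82 CPM at passage 0 and between 16.6 and 42.7 CPM later, and in the NrESC arm it was 3.12 CPM and then between 4.84 and 9.1 CPM, so that it was higher later in both arms. In the ESC arm the mean of Pramel6 was 8.15 CPM at passage 0 and 17 CPM at passage 14, and in the NrESC arm 3.57 and 2.05 CPM. Of the other germline genes most did not pass the test: in the whole list 6 of 27 fell and 2 rose (Mov10l1 and Piwil2), with a median of -0.03.

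Lineage markers gave no common direction. Of all genes 17.6% were called up and 14.8% down, and the small counts below are not read as departures from these shares. Of trophectoderm genes 4 of 21 rose (Krt8, Krt18, Tfap2c and Tead4) and 5 fell (Gata2, Krt19, Ascl2, Cdx2 and Eomes). Gata2 stood at 9.64 and 7.98 CPM in the ESC libraries and 5.13 and 5.19 CPM in the NrESC libraries (-0.79). Of endoderm genes 3 of 19 rose (Gata4, Col4a2 and Sparc) and 3 fell (Cxcr4, Hnf4a and Lama1). Of mesoderm and neuroectoderm genes 2 of 18 rose (T and Sox1) and 5 fell, among them Nes (-0.34), Tubb3 (-0.26) and Gap43 (-0.61). Pax6 and Evx1 were called down from levels under 0.5 CPM, at 0.337 and 0.29 CPM in ESC, 0.135 and 0.0219 CPM in NrESC for Pax6 and 0.285 and 0.435 CPM in ESC, 0.0675 and 0.0875 CPM in NrESC for Evx1.

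The NRF2 and p53 lists held more raised than lowered members, where 17.6% of all genes were called up and 14.8% down. Of 25 NRF2 and glutathione genes 15 rose and 2 fell (Gsta3 and Hmox1), with a median of 0.11. The metallothionein Mt2, which binds metals, stood at 248 and 246 CPM in the ESC libraries and 422 and 466 CPM in the NrESC libraries (0.85, SE 0.0427, edgeR adjusted p = 8.17e-20). Mt1 stood at 154 and 154 CPM in the ESC libraries and 231 and 246 CPM in the NrESC libraries (0.63, SE 0.0376). Gstm1, a glutathione transferase, stood at 27 and 27.5 CPM in the ESC libraries and 39.9 and 40.4 CPM in the NrESC libraries (0.56). Of 23 p53 targets 12 rose and 3 fell (Pmaip1, Sesn1 and Bax), with a median of 0.17. Only 4 of the 12 lay above all 8 ESC passage means and 8 lay within their range, where 2024 of all 2645 raised genes lay above. Gdf15, a secreted stress signal that ATF4 also induces, stood at 5.26 and 5.44 CPM in the ESC libraries and 12.7 and 13.2 CPM in the NrESC libraries (1.28, SE 0.101). Cdkn1a, the cell cycle inhibitor p21, stood at 196 and 200.4 CPM in the ESC libraries and 235 and 235 CPM in the NrESC libraries (0.25, SE 0.026), and the canonical target Mdm2 was not called (0.07, SE 0.0311). For 16 of the 23 the difference was higher at passage 0 than in the mean of later passages, at which the members' median was -0.14.

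Of 25 genes of the interferon response and antigen presentation tested (of 36 listed) 11 rose, 1 fell (Oas1a) and 13 were not called, with a median of 0.18. Of all genes 17.6% were called up and 14.8% down. H2-K1, an MHC class I heavy chain, stood at 32.2 and 28.9 CPM in the ESC libraries and 48.4 and 48.4 CPM in the NrESC libraries (0.65, SE 0.0506). Tapbp, which loads peptides onto such chains, stood at 59.4 and 62.2 CPM in the ESC libraries and 82.4 and 82.1 CPM in the NrESC libraries (0.44), and Bst2, an interferon-induced membrane protein, at 34 and 36.3 CPM in the ESC libraries and 47.5 and 46.3 CPM in the NrESC libraries (0.42). B2m, the light chain of MHC class I, was not called (-0.05, SE 0.0973). Of 14 inflammatory genes 6 rose, among them Nfkb2 (27.2 and 27.9 CPM in ESC, 38.5 and 38.6 CPM in NrESC) and Relb (31.4 and 31.8 CPM in ESC, 43.1 and 40.6 CPM in NrESC) of the noncanonical NF-kappa-B pathway, and 2 fell (Nos2 and Tnfaip3). Nos2, the inducible nitric oxide synthase, stood at 0.7 and 0.399 CPM in ESC, 0.27 and 0.131 CPM in NrESC.

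Targets of the other receptors that T0901317 is known to bind were counted next. Of 13 PXR, CAR and FXR targets with enough counts (of 26 listed) 1 rose (Gstm1) and 1 fell (Abcb1a, 40.8 and 37.5 CPM in ESC, 34.4 and 35.3 CPM in NrESC), which is 15.4% of those tested. Of all genes 32.4% were called, and of those under 1 CPM, where 7 of these 13 lay, 6.96%. At this depth the FXR target Nr0b2 did not pass the test (0.285 and 0.472 CPM in ESC, 0.169 and 0.197 CPM in NrESC). Of 19 circadian and ROR target genes 2 rose (Cry2 and Tef) and 3 fell (Bhlhe40, Bhlhe41 and Rora), 26.3% of those tested and near the share of all genes, with a median of 0.00. Bhlhe40, a repressor in the clock that hypoxia also induces, stood at 96.6 and 95.3 CPM in the ESC libraries and 72.2 and 68.9 CPM in the NrESC libraries (-0.45), and Bhlhe41 at 0.855 and 0.544 CPM in ESC, 0.101 and 0.284 CPM in NrESC. The ROR targets Nr1d1 (0.00, SE 0.0868), Arntl (-0.13, SE 0.058) and Npas2 (0.467 and 0.327 CPM in ESC, 0.169 and 0.591 CPM in NrESC) were not called. Of 19 retinoic acid targets, which RAR controls with the same partner RXR, 4 rose and 4 fell. Rara rose by 0.29, and Stra8, a retinoic acid target of germ cells, stood at 11.6 and 9.07 CPM in the ESC libraries and 5.97 and 6.59 CPM in the NrESC libraries (-0.73). Of 22 fatty acid oxidation and PPAR targets 5 rose and 6 fell, with a median of -0.02. The carnitine palmitoyltransferases Cpt1b (5.78 and 6.02 CPM in ESC, 10.7 and 9.34 CPM in NrESC) and Cpt2 (20.3 and 23.4 CPM in ESC, 28.5 and 26.3 CPM in NrESC) rose, and the PPAR target Angptl4 fell (31.8 and 31 CPM in ESC, 25.7 and 25.7 CPM in NrESC). An LXR response element, a direct repeat of AGGTCA with a spacer of 4 bases, allowing up to 2 mismatches and read on both strands, stood in 2.32% of all promoters, in 0 of the 9 raised LXR targets with a promoter and in 2 of the 61 genes raised 2-fold or more with one (Cdhr5 and Gdf15). These windows cover 250 bases and say nothing of elements elsewhere.

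Chromatin genes moved by small amounts, and some imprinted genes by more. Of 30 DNA methylation and chromatin repressor genes 18 fell and 3 rose (Suv39h1, Ehmt2 and Zfp57), with a median of -0.11. At 100 CPM or more, where 34.1% of all genes were called down, stood 24 of the 30. Dnmt3l, a cofactor of new DNA methylation, stood at 121 and 125 CPM in the ESC libraries and 100.4 and 97.3 CPM in the NrESC libraries (-0.31), and Ehmt2 (G9a), a histone methyltransferase, at 224 and 223 CPM in the ESC libraries and 295 and 285 CPM in the NrESC libraries (0.37). Dnmt1 was not called (0.02, SE 0.0225). Of 31 imprinted genes 11 rose and 5 fell, with a median of 0.09, and 1 of them rose 2-fold or more. Meg3 and Rian, noncoding RNAs of the same imprinted domain, stood at 79.9 and 81.4 CPM in ESC, 116 and 116 CPM in NrESC and at 126 and 120.2 CPM in ESC, 154 and 165 CPM in NrESC. H19 stood at 4.95 and 4.1 CPM in the ESC libraries and 2.73 and 3.09 CPM in the NrESC libraries (-0.64, SE 0.124), with an interaction of 1.90 (SE 0.137) against later passages. Its mean in the ESC arm was 4.53 CPM at passage 0 and between 7.09 and 52.7 CPM later. In the NrESC arm it was 2.91 CPM and then between 2.13 and 5.94 CPM. Lysosome and autophagy genes counted 12 up and 4 down of 31, led by Gabarapl1 (0.46), and respiratory chain genes 7 up and 5 down of 37, with a median of 0.03. In all, the 37 lists held 850 tested genes, of which 226 rose (26.6%) and 244 fell (28.7%), where 17.6% and 14.8% of all genes did. The lists were chosen with earlier results of these data known, and nothing is read from that difference.

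**Figure D4:**
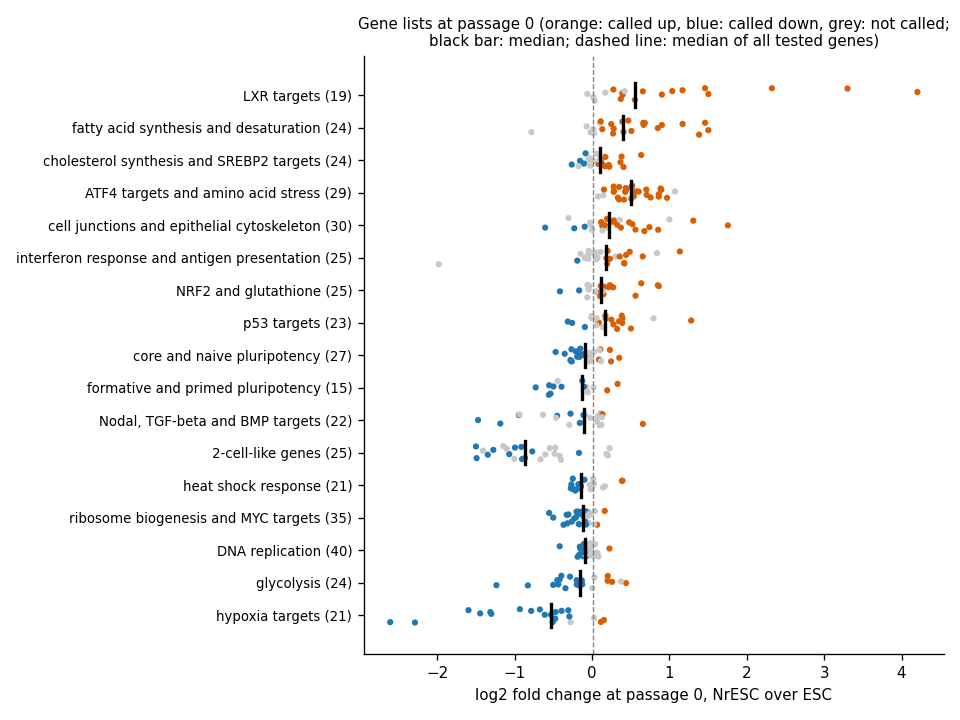
Log2 fold change at passage 0 (NrESC over ESC) of every tested member of 17 gene lists, with the number of members in brackets, the list's median as a black bar and the median of all tested genes as a dashed line. ATF4 targets lie to the right almost to the last member (median 0.50) and hypoxia targets to the left (median -0.53), while pluripotency, replication and heat shock genes sit just left of 0.

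Several genes with large differences belonged to no list. A2m, alpha-2-macroglobulin, a secreted protease inhibitor, stood at 39.2 and 41.2 CPM in the ESC libraries and 13.6 and 12.3 CPM in the NrESC libraries (-1.64, SE 0.0553, edgeR adjusted p = 4.27e-26), below all 8 ESC passage means, of which the lowest was 40.2 CPM. Trpm1, a cation channel, stood at 14.5 and 15.4 CPM in the ESC libraries and 6.51 and 6.59 CPM in the NrESC libraries (-1.19, SE 0.0901). Spic, an ETS family transcription factor, stood at 11.4 and 11.8 CPM in the ESC libraries and 5.13 and 5.16 CPM in the NrESC libraries (-1.17, SE 0.101). Among lowered genes of lower level were the adenylate kinase Ak7 (8.35 and 8.27 CPM in ESC, 3.54 and 3.96 CPM in NrESC), the forkhead factor Foxd1 (3.5 and 3.12 CPM in ESC, 1.35 and 1.66 CPM in NrESC) and Elavl3, an RNA-binding protein of neurons (3.01 and 3.16 CPM in ESC, 1.69 and 1.27 CPM in NrESC). Raised genes outside the lists included Kif21b, a kinesin motor, at 29.7 and 30 CPM in the ESC libraries and 60.9 and 61.8 CPM in the NrESC libraries (1.04, SE 0.0497). Ubap1l stood at 6.04 and 6.57 CPM in the ESC libraries and 16 and 14 CPM in the NrESC libraries (1.25, SE 0.104). Mef2b, a MADS box transcription factor, stood at 2.1 and 1.81 CPM in the ESC libraries and 5.84 and 5.25 CPM in the NrESC libraries (1.48, SE 0.151). Slc2a4, the insulin-responsive glucose transporter GLUT4, stood at 1.56 and 1.67 CPM in the ESC libraries and 3.91 and 3.17 CPM in the NrESC libraries (1.12, SE 0.192), and S1pr3, a receptor for sphingosine 1-phosphate, at 2.62 and 2.72 CPM in the ESC libraries and 5.1 and 5.95 CPM in the NrESC libraries (1.07, SE 0.149). Il4i1, an amino acid oxidase, had unequal ESC libraries (1.89 and 0.58 CPM in ESC, 3.75 and 3.85 CPM in NrESC). The remaining genes of this kind, Rin1, Mst1, Pcdhga8, Pdzd7, Sec31b and Tbrg3, rose by 0.97 to 1.01, and Pcdhga8 shares exons with its neighbours in a gene cluster. Ptma, prothymosin alpha, was among the highly expressed genes that fell (3600.0 and 3143 CPM in ESC, 3000.2 and 2993 CPM in NrESC).

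The genes called at passage 0 were followed in the separate libraries of later passages. Of the 2645 raised genes, between 56.3% (passage 14) and 75.5% (passage 8) were called up at a given later passage, and between 1.63% and 9.30% were called down. Of all tested genes 24.7%, 27.4%, 23.6%, 35.2%, 27.0%, 23.1% and 19.7% were called up at passages 2 to 14 in order. Of the 2230 lowered genes, between 54.8% (passage 14) and 78.5% (passage 8) were called down again, where 23.8%, 26.9%, 25.1%, 34.6%, 28.5%, 24.0% and 21.3% of all tested genes were. At all 7 later passages 968 of the raised (36.6%) and 751 of the lowered genes (33.7%) were called the same way, and at none of them 197 and 130. The share of all tested genes called 1 way at all 7 is not given here, so percentages for all 7 have no background. All passages come from the same 2 arms of 1 cell line, so these are repeats of the comparison in other libraries and not in independent cultures. Calls also depend on level: at passage 0, 6.96% of genes under 1 CPM were called and 55.5% at 100 CPM or more. The 1 fit gave each gene a spread shared by all passages. A gene measured precisely enough to be called once is thus more likely to be called again, which the shares of all genes leave out. Shares for the genes with larger differences, most of which are weakly expressed, were as follows. Of the 106 genes raised 2-fold or more, between 31.1% (passage 14) and 68.9% (passage 8) were called up at a given later passage, and 21.7% at all 7. Of the 130 genes lowered 2-fold or more, between 43.1% (passage 10) and 66.9% (passage 14) were called down, and 23.8% at all 7. Of the same 130, 24 (18.5%) were called up at passage 10, the passage at which the hypoxia list turned.

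**Figure D5:**
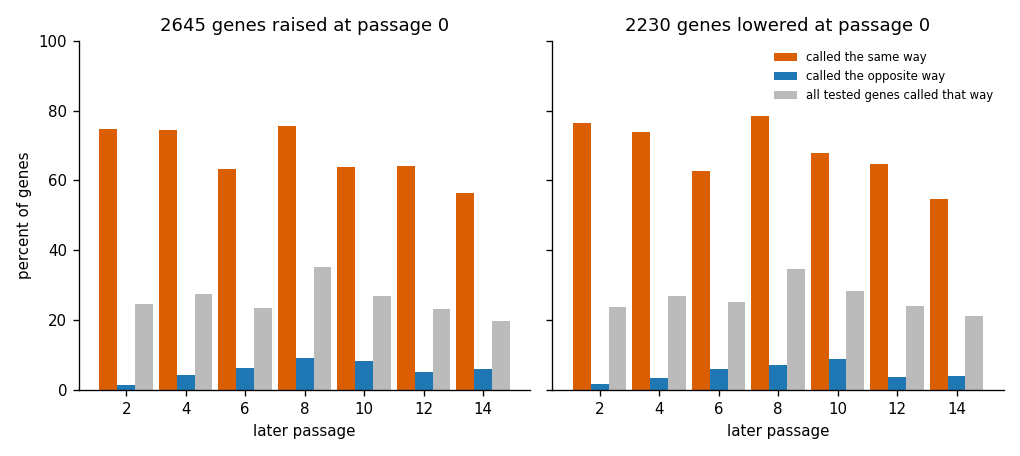
Percent of the 2645 genes raised and the 2230 genes lowered at passage 0 that were called the same way (orange) or the opposite way (blue) at each later passage, beside the percent of all tested genes called in that direction (grey). The orange bars lie between 54.8% and 78.5% and the blue bars at 9.30% or lower.

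The test of passage 0 against later passages called 3851 genes (25.6%), 2107 with a higher and 1744 with a lower difference at passage 0. Among genes called at passage 0, one set had a later mean difference of the other sign, with passage 10 counted in that mean. Nags, which makes the activator of the urea cycle, stood at 3.19 and 3.27 CPM in the ESC libraries and 1.86 and 1.97 CPM in the NrESC libraries (-0.74) with a later mean of 0.42, and had an interaction of -1.16 (SE 0.201, edgeR adjusted p = 1.88e-05). Pygl, liver glycogen phosphorylase, stood at 3.6 and 3.99 CPM in the ESC libraries and 1.79 and 2.6 CPM in the NrESC libraries (-0.73) with a later mean of 0.37, and had an interaction of -1.10 (SE 0.155). Aire, a transcription factor known from the thymus, stood at 4.56 and 5.7 CPM in the ESC libraries and 2.46 and 2.54 CPM in the NrESC libraries (-1.01) with a later mean of 0.16, and had an interaction of -1.17 (SE 0.166). These later means lean on passage 10, where the difference was 1.56 for Nags, 1.81 for Pygl and 1.12 for Aire. It was positive for each at passages 6 and 12 too, but negative for each at passages 4 and 14. At passage 4 it was -0.04, -0.28 and -0.27 in the same order, and at passage 14 -0.21, -0.13 and -0.11. Another set grew after passage 0 in the same direction. Zfp951, a zinc finger gene, stood at 19.2 and 19.4 CPM in the ESC libraries and 15.6 and 17 CPM in the NrESC libraries (-0.24) and had an interaction of 2.15 (SE 0.102). Smtnl1, a smoothelin-like muscle protein, stood at 6.07 and 6.46 CPM in the ESC libraries and 3.61 and 3.48 CPM in the NrESC libraries (-0.82), with an interaction of 1.53 (SE 0.146), and Aspa, which cleaves N-acetylaspartate, at 5.26 and 5.95 CPM in the ESC libraries and 3.24 and 4.68 CPM in the NrESC libraries, with 1.37 (SE 0.179). Slfn9 grew upward: it stood at 8.99 and 8.71 CPM in the ESC libraries and 9.99 and 11.6 CPM in the NrESC libraries (0.30), with an interaction of -1.34 (SE 0.0965). Each of these genes of the second set was called the same way at all 7 later passages.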

How the data were processed

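Polyadenylated RNA was sequenced from all samples. A table of RSEM expected counts by gene symbol was deposited without normalization, per the file headers (0.837% of values fractional). A table of TPM, scaled for gene length and library by the authors, was deposited beside it. The submitters' processing notes name STAR, Cufflinks 2.2.1, HTSeq 0.12.4, DESeq2, edgeR, RSEM and the build mm9. Their roles, the annotation and the strand setting are not given in the sources used here, and RSEM divides reads among similar genes.

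Expected counts were rounded, filtered with filterByExpr on the 16 groups and fitted over all 32 libraries, each of the 16 groups with its own mean (quasi-likelihood test of edgeR 4.0.16, R 4.3.3, TMM, 16 residual degrees of freedom, Benjamini-Hochberg adjustment over all 15036 genes, threshold 0.05). The contrasts were NrESC minus ESC at passage 0, at each later passage, and the passage 0 difference minus the mean of passages 2, 4, 6, 10, 12 and 14. That mean leaves out passage 8, whose treated libraries were known to stand apart. Alternatives were RLE scaling, DESeq2 1.42.0, other filters, limma 3.58.1 on log2 of TPM with pseudocounts of 1 and 0.1, each library left out, a replicate block and passage 0 alone.

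The comparison, the 37 gene lists and the rules were chosen with earlier results of these data known, so the lists are described by counts and medians without a test. Named genes are, outside the lipid lists, 15 called genes at each end of the fold changes with a mean of at least 2 CPM and the 8 largest rises and falls in CPM, all without overlap between the arms. To these come from every list the 3 smallest p-values, members changed 2-fold or more, and the 6 highest and lowest interactions, placeholder symbols aside. List members named beyond this rule were picked after their values were seen. A few genes under the rule appear only in counts, and some items are not reported here.

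The 2 libraries of an arm differed by more than counting noise (chi-square per degree of freedom 2.39 in ESC and 2.36 in NrESC). Replicate numbers did not pair the libraries: same-numbered deviations correlated at -0.02 to 0.06 over the 8 passages. In a test on simulated data with 200 changed genes among 15036, the passage 0 contrast called 49.3% of those changed 1.2-fold, 67.2% at 1.5-fold and 86.4% at 2-fold, with 6 false calls among 141. In the data 4875 genes were called, so the adjusted threshold differs and these shares need not hold there. The simulated counts varied only as the libraries of a group do, so the false calls leave out differences between cultures or harvests. Precision follows from total counts of 28055511 to 46266628 per library. Sequences are RefSeq promoters of GRCm38.p6, searched in Python 3.11.15, and no coordinate of the deposited build is given.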

Additional observations from a re-analysis of the deposited data

Results flagged for a closer look

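The genes below were singled out because their difference between the arms at passage 0 was unlike that of passages 2, 4, 6, 10, 12 and 14 by 2-fold or more in edgeR's test of the interaction (adjusted p under 0.05). Values are log2 interactions, passage 0 minus the later mean, with the value without passage 10 after it, a setting chosen after the data were seen.

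Lower at passage 0 than later were genes of the response to low oxygen: Adm at -1.88 (-1.35, no longer called), Slc16a3 at -1.05 (-0.78), Ndrg1 at -1.02 (-0.72), Bnip3 at -1.0045 (-0.65) and Ankrd37 at -1.0001 (-0.87). Loxl2 was at -1.17 (-0.74) and Bhlhe41 at -1.34 (-1.06, no longer called). Others on that side were Nos2 at -1.64 (-1.44, no longer called), Aire at -1.17 (-0.98), Nags at -1.16 (-0.93) and Pygl at -1.10 (-0.81). Slfn9 at -1.34 (-1.22) rose at passage 0 and rose more later. Adm, Bhlhe41 and Nos2 lay under 1 CPM in all 4 libraries, so that their values are imprecise (SE 0.611, 0.513 and 0.564).

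Less lowered at passage 0 than later were genes of the early embryo: Zscan4d at 1.10 (1.04), Zscan4c at 1.26 (1.24), Pramel6 at 1.76 (1.70) and Pramel7 at 1.87 (1.85). The same held for H19 at 1.90 (1.77), Zfp951 at 2.15 (1.92), Smtnl1 at 1.53 (1.42) and Aspa at 1.37 (1.18). The mean of H19 in the ESC arm was higher at each later passage than at passage 0. The libraries of a later passage differ from those of passage 0 in their time of harvest as well as in the length of treatment, and these cannot be told apart here.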

How the results depend on the processing

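The counts of genes called at passage 0 and their balance moved with tool and scaling: against 2645 raised and 2230 lowered genes, DESeq2 called 2012 and 2094 and RLE scaling 2423 and 2437, so that lowered genes were then the more numerous. The count at 2-fold or more moved further. With DESeq2 58 genes were raised and 78 lowered 2-fold or more, with a stricter filter on low counts 66 and 85, with limma on log2(TPM + 1) 17 and 13, and with limma on log2(TPM + 0.1) 73 and 68, against 106 and 130. Leaving out 1 library at a time gave 1804 to 2180 raised and 1583 to 1864 lowered genes, 87 to 115 and 100 to 125 at 2-fold or more, and 1352 to 1688 higher and 1201 to 1613 lower interactions. The 1352 came without the second NrESC library and the 1201 without the first ESC library. With 1 library left in an arm, that library is assumed to vary like the others. The replicate block gave 2440 raised and 2062 lowered genes, 99 and 120 at 2-fold or more, 1916 and 1575 interactions, and 219 and 234 list members. The interaction without passage 10 called 1838 genes up, with all 7 later passages 2468, and with passages 2 and 4 alone 1735. No named gene turned its sign. Of the medians of the 37 lists under these settings, 101 of 481 moved by more than the SD between library pairs, 18 of them without the second NrESC library, 14 without the first, and 12 with limma on log2(TPM + 1). Under some setting 7 lists had a median of the other sign, all with a reported median within 0.0519 of 0: circadian, fatty acid oxidation, fibroblast, mesoderm and neuroectoderm, trophectoderm, actin and ERK genes. The median of the 2-cell-like list was -0.26 with limma on log2(TPM + 1). Named genes that lost a call under some setting were Abcb1a, Aspa, Bhlhe41, Cdx1, Eef1a1, Evx1, Gap43, Hnf4a, Hsp90ab1, Nos2, Nrn1 and Pax6.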
